A study of Mus musculus with 12 samples.

Results

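The MYC, MAX and MXD network was examined by RNA-seq in LSK cells of WT and Fancg KO mice. These cells, sorted from bone marrow for KIT and Sca-1 and against lineage markers, include the hematopoietic stem cells and the multipotent progenitors. The network was taken as the 10 genes Myc, Mycn, Mycl, Max, Mxd1, Mxd3, Mxd4, Mxi1, Mnt and Mlx, chosen by family membership from the 35999 genes of the table, and all 10 were found in it. There was 1 library per mouse, 6 labelled WT and 6 labelled Fancg KO. The KO mice are Fancg-/- and so lack a gene of the Fanconi anemia DNA repair pathway. No treatment, age or strain of these mice is given in the labels. The deposited table holds 1 value for each gene in each library, taken to be an estimated number of reads scaled by library and called signal here.

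MYC, MYCN and MYCL are transcription factors that bind DNA only as a pair with MAX, mostly at the E-box CACGTG, and activate genes for growth, ribosome assembly and metabolism. The MXD proteins, MXI1 and MNT also pair with MAX but recruit SIN3 and histone deacetylases, so that the same sites are repressed. MLX is a MAX-like protein that pairs with MLXIP, MLXIPL and with some of the repressors. In the bone marrow, MYC is known for its part in moving stem cells from self-renewal toward differentiation, and MYCN acts beside it in stem cell survival.

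The E-box is shown first because it is the sequence the network reads, and some network genes carry it in their own promoters. Promoters were taken from RefSeq on GRCm38.p6 as windows from 250 bases before to 50 bases after each start site. Of the 10 members, 9 were matched to a promoter, all but Myc, and 4 of these 9 held CACGTG in a window. Over all 27025 genes with a promoter in the same source, 8.09% held it. Among the 7038 genes that had a promoter and were later tested between the labels, the share was 12.3%. CACGTG reads the same on both strands, so each match counts for both. The 4 stretches follow, 5′ to 3′ on the strand of the gene, with the E-box in capitals.
Mxd4: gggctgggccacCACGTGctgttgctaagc
Mnt: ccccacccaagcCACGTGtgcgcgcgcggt
Mlx: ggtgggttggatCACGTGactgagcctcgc
Max: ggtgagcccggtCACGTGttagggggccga
The stretch of Mxd4 lies at chr5:34187912-34187941 on the minus strand, and that of Max at chr12:76962234-76962263 on the minus strand. The stretch of Mnt lies at chr11:74830789-74830818 and that of Mlx at chr11:101087238-101087267, both on the plus strand. Counted from the RefSeq start site, the first base of the E-box lies at -219 in Mxd4, -123 in Mnt, -40 in Mlx and -3 in Max. The gene positions given further on come from another annotation and can start elsewhere. Of the MYC-activated target genes described further on, 16 of 56 with a promoter held CACGTG, or 28.6%. These matches describe letters in a window and not binding.

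The signal summed over a library came to between 1576081 and 2672915, and the spacing of the low values gives roughly 1235109 to 2471417 reads per library. These totals include Lars2, which held between 15.6% and 36.2% of the signal of a library, so the depth for all other genes was lower. Fancg itself did not part the labels. Its signal ran from 4.76 to 24.1 for WT (median 8.59) and from 4.46 to 14.5 for KO (median 7.91; two-sided exact permutation test, p = 0.636), so every direction below is between libraries as labelled. WT replicate 3 and KO replicate 7 stood apart with a summed signal of 26.6 and 49.7 over Uty, Kdm5d, Ddx3y and Eif2s3y, which are Y-linked, against 189 to 435 in the other libraries. The pseudogene Gm18853 was at 19.2 in WT replicate 3 and at or near 0 in KO replicate 3. It was at 0.0304 or less in the other WT libraries and at 15.1 or more in the other KO libraries. Values of the members were therefore also computed without the pair of libraries with little Y-linked signal and without both libraries numbered 3. Of the markers that define the sort, Kit had a signal of 283 to 435 in every library, while Ly6a, which encodes Sca-1, was low at 4.84 to 17.4. Markers of several mature cell types were low. The 5 T cell markers summed to at most 7.51, the 4 B cell markers to at most 20.6, the 7 erythroid markers to at most 31.8 and the 4 stromal markers to at most 3.45 in any library.

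No member of the network passed the test between the labels. Of the 10 members, 8 passed the filter of a mean signal of at least 10 and were tested with limma on log2(signal + 1), and 4 of these were higher and 4 lower in the KO libraries. The adjusted p was 0.9996 for each of the 8 (limma with Benjamini-Hochberg adjustment over 8887 genes), so 0 members were called. In such bulk samples, fewer cells of a type and less RNA per cell cannot be told apart. Over all genes tested the share called was 0%. At an unadjusted p under 0.05 there were also 0 members, against 3.67% of all genes tested (1.98% higher and 1.69% lower in the KO libraries). The signal of WT and KO libraries overlapped for all 8, while 0.09% of all genes tested did not overlap. Over all 10 members the two-sided exact permutation p ran from 0.128 to 0.924. The smallest p that 6 libraries against 6 allow is 0.0022.

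**Figure D1:**
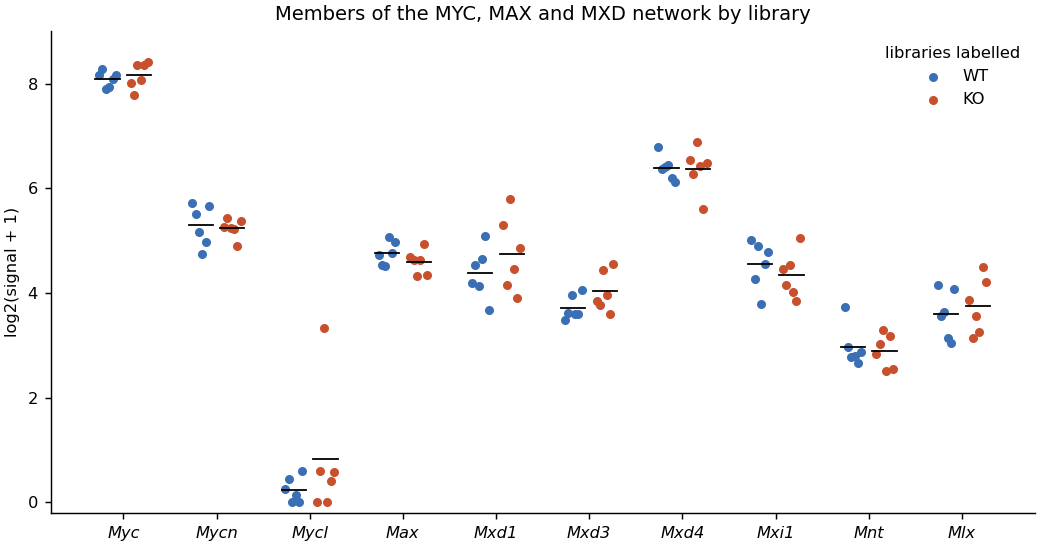
Level of each member in each library as log2(signal + 1), with WT libraries in blue, KO libraries in red, replicates 2 to 7 from left to right in each group and the group mean as a black line. The groups overlap for all 10 genes, and Mycl in KO replicate 4 (signal 9.14) lies far from the other libraries.

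Among the genes of the MYC proteins, Myc had by far the highest signal. Its gene maps to chr15:61985391-61990374 (plus strand, ENSMUSG00000022346.15), and positions here are those of GENCODE M21 on GRCm38. Myc signal ran from 237 through a median of 278 to 310 in the WT libraries and from 218 through 296 to 339 in the KO libraries. The lowest value and the 3 highest were all in KO libraries, and the WT values lay inside the KO range. The mean was 272 ± 27.7 (SD, n = 6) for WT and 288 ± 48.7 (SD, n = 6) for KO. The log2 fold change of 0.07 (standard error 0.14, 95% interval -0.22 to 0.37) had an exact permutation p of 0.543. On the linear scale the interval ran from 0.857-fold to 1.29-fold.

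Mycn maps to chr12:12936093-12941914 (minus strand). Mycn signal ran from 25.7 through a median of 39.7 to 51.8 in the WT libraries and from 28.6 through 37.1 to 42.4 in the KO libraries. The highest values, above the KO maximum, were in 3 WT libraries, and so was the lowest value of all. KO minus WT, the log2 difference was -0.06 (standard error 0.19, 95% interval -0.46 to 0.35, exact permutation p = 0.751). Leaving out WT replicate 2 turned its sign, to 0.03.

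Mycl (chr4:122995652-123002485) was at or near 0 and was not tested with limma. Mycl signal ran from 0 to 0.51 in the WT libraries, and 5 of the 6 KO libraries lay between 0 and 0.526. KO replicate 4 alone had 9.14, which corresponds to about 11.7 reads. Of the 12 libraries, 4 were at 0. The difference of 0.59 on the log2 scale (exact permutation p = 0.323) fell to 0.08 without KO replicate 4. That library was also the highest of all 12 for Mxd1 and Mxd4, and the lowest for Max.

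Max, the shared partner, maps to chr12:76937269-76962201 (minus strand). Max signal ran from 21.9 through a median of 26.0 to 32.5 in the WT libraries and from 19.1 through 23.8 to 29.4 in the KO libraries. KO replicates 4 and 7 lay below every WT library, and WT replicates 5 and 7 above every KO library. The mean was 26.5 ± 4.31 (SD, n = 6) for WT and 23.4 ± 3.85 (SD, n = 6) for KO. Its fitted difference of -0.17 (standard error 0.17, 95% interval -0.54 to 0.20) had an exact permutation p of 0.212.

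Mlx, the partner of the other branch, maps to chr11:101087277-101092207 (plus strand). It ran from 7.31 through 11.1 to 16.7 in the WT libraries and from 7.79 through 12.2 to 21.7 in the KO libraries, a log2 fold change of 0.15 (standard error 0.30, exact permutation p = 0.608). KO replicates 6 and 7 were higher than any WT library. Without KO replicate 6 the log2 fold change was 0.0017. Of the 31-base stretches of Mlx transcripts, 17.1% are shared with Psmc3ip, which overlaps Mlx on the opposite strand and had a mean signal of 18.4. Whether the strand was used in quantification is not given in the sources used here, so the value of Mlx is uncertain.

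**Figure D2:**
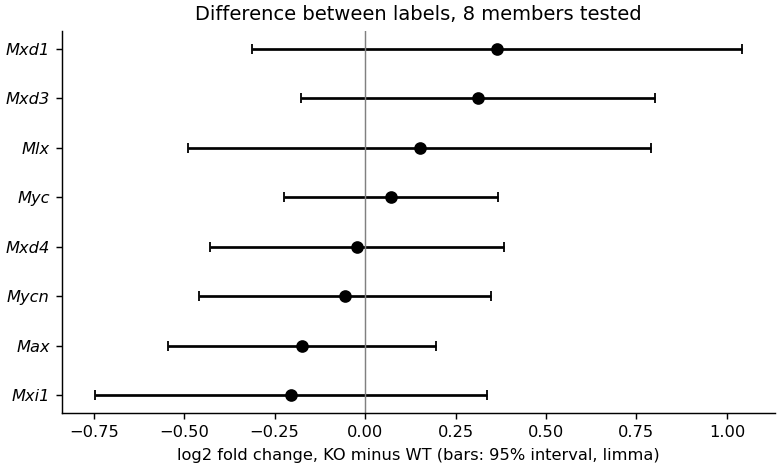
Log2 fold change of the 8 members tested, KO minus WT on the log2(signal + 1) scale, as points with the 95% interval from limma as bars. Every interval holds 0. The narrowest is that of Myc (-0.22 to 0.37) and the widest that of Mxd1 (-0.31 to 1.04).

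Of the repressors, Mxd1 and Mxd3 had a higher mean in the KO libraries, Mxi1 and Mnt a lower one, and Mxd4 nearly the same. Mxd1, a repressor that rises during myeloid differentiation, maps to chr6:86647042-86669161 (minus strand). Mxd1 signal ran from 11.8 through a median of 19.7 to 32.9 in the WT libraries and from 13.9 through 24.5 to 54.2 in the KO libraries. KO replicates 2 and 4, at 38.6 and 54.2, lay above every WT library, while KO replicate 6 was lower than all WT libraries but replicate 7. The mean was 20.8 ± 7.39 (SD, n = 6) for WT and 28.8 ± 15.3 (SD, n = 6) for KO. Its log2 fold change of 0.37 (standard error 0.32, 95% interval -0.31 to 1.04, exact permutation p = 0.325) fell to 0.16 without KO replicate 4.

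Mxd3, which is known to be expressed in dividing cells, maps to chr13:55325168-55329823 (minus strand). Mxd3 signal ran from 10.2 through a median of 11.2 to 15.6 in the WT libraries and from 11.2 through 14.0 to 22.6 in the KO libraries. KO replicates 4 and 7 lay above every WT library, and the other 4 KO libraries within the WT range. The fitted difference on the log2 scale was 0.31 (standard error 0.23, 95% interval -0.18 to 0.80, exact permutation p = 0.128, the smallest among the members). Without both libraries with little Y-linked signal it was 0.19, and without KO replicate 6 it was 0.40. Of its 31-base stretches, 3.08% are shared with Prelid1 on the opposite strand, which had a mean signal of 91.8.

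Among the repressors that are members, Mxd4 had the highest signal and the smallest difference. The gene maps to chr5:34173883-34187720 (minus strand). Mxd4 signal ran from 68.9 through a median of 82.8 to 110 in the WT libraries and from 48.0 through 86.8 to 117 in the KO libraries, so that the WT range lay inside the KO range. The mean was 84.0 ± 14.5 (SD, n = 6) for WT and 84.5 ± 22.5 (SD, n = 6) for KO. KO minus WT, the log2 difference was -0.02 (standard error 0.19, 95% interval -0.43 to 0.38, exact permutation p = 0.924). It was 0.13 without KO replicate 6 and 0.03 with the libraries set to equal totals without Lars2, the gene that takes between 15.6% and 36.2% of a library.

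Mxi1 (chr19:53310518-53375810, plus strand) had a signal from 12.8 through a median of 24.5 to 31.5 in the WT libraries and from 13.4 through 18.9 to 32.3 in the KO libraries. Both groups covered nearly the same range. The log2 fold change of -0.20 (standard error 0.26, 95% interval -0.75 to 0.34, exact permutation p = 0.437) was -0.40 without both libraries with little Y-linked signal. Without both libraries numbered 3 it was -0.22.

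Mnt, a repressor expressed in most tissues, maps to chr11:74830920-74845725 and was not tested with limma because its mean signal was 6.86. It ran from 5.33 through 6.15 to 12.3 in the WT libraries and from 4.72 through 6.63 to 8.84 in the KO libraries. WT replicate 2 alone lay above the KO range. The difference was -0.07 on the log2 scale (exact permutation p = 0.747) and turned to 0.08 without that library. At 3.0 to 11.3 reads in a library, a small change was not detectable at this depth.

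Levels of different genes were compared per kilobase of transcript, using the longest principal transcript of each gene in GENCODE M21. On this scale Myc came first, with 120 ± 16.6 signal per kilobase (SD, n = 12), and was 5.51 times Mxd4, the next gene, in the means. Myc was above Mxd4 in 12 of 12 libraries and their ranges did not overlap. Then came Mxd4 with 21.8 ± 4.66, Mycn with 14.3 ± 2.97, Max with 12.8 ± 2.18, Mxd3 with 10.6 ± 2.97, Mxi1 with 9.30 ± 2.91, Mlx with 6.35 ± 2.34 and Mxd1 with 5.31 ± 2.61 signal per kilobase (SD, n = 12 for each). Mycn was above Max in 9 of 12 libraries and Mlx above Mxd1 in 7 of 12, so these neighbors did not differ beyond their spread. Max and Mxd3, and Mxd3 and Mxi1, also overlapped in range. Mnt, with 1.49 ± 0.457, was below Mxd1 in 12 of 12 libraries. Mycl, with 0.278 ± 0.737, was last and below Mnt in 11 of 12. The length of a transcript is uncertain where a gene has several. Annotated transcripts of Mxi1 run from 833 to 5036 bases, and 2340 bases were used.

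Myc exceeded its own partner as well. The ratio of Myc to Max per kilobase was 8.73 ± 1.77 (SD, n = 6) in the WT libraries and 10.6 ± 3.00 (SD, n = 6) in the KO libraries. It was highest in KO replicates 4 and 7, at 14.1 and 14.6, and 11.6 or less in the other libraries. The ratio to Mycn was 8.27 ± 1.85 (SD, n = 6) for WT and 9.13 ± 2.42 (SD, n = 6) for KO.

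The balance of Myc to the repressors was described as the log2 ratio of Myc to the sum of Mxd1, Mxd3, Mxd4, Mxi1 and Mnt, all per kilobase, without a test. It was 1.31 ± 0.21 (SD, n = 6) in the WT libraries, from 1.03 to 1.598, and 1.33 ± 0.42 (SD, n = 6) in the KO libraries, from 1.01 to 2.16. Myc thus had from 2.02 to 4.46 times the summed repressors in every library. KO replicate 6 had the highest ratio, together with the lowest Mxd4 signal of all libraries. Mxd4 made up 46.1% ± 5.16 (SD, n = 6) of the summed repressors in the WT libraries and 43.8% ± 4.37 (SD, n = 6) in the KO libraries. Mxd3 made up 19.99% ± 4.09 and 24.1% ± 3.12, and Mxi1 21.01% ± 4.89 and 17.3% ± 3.15 (SD, n = 6 in each group).

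**Figure D3:**
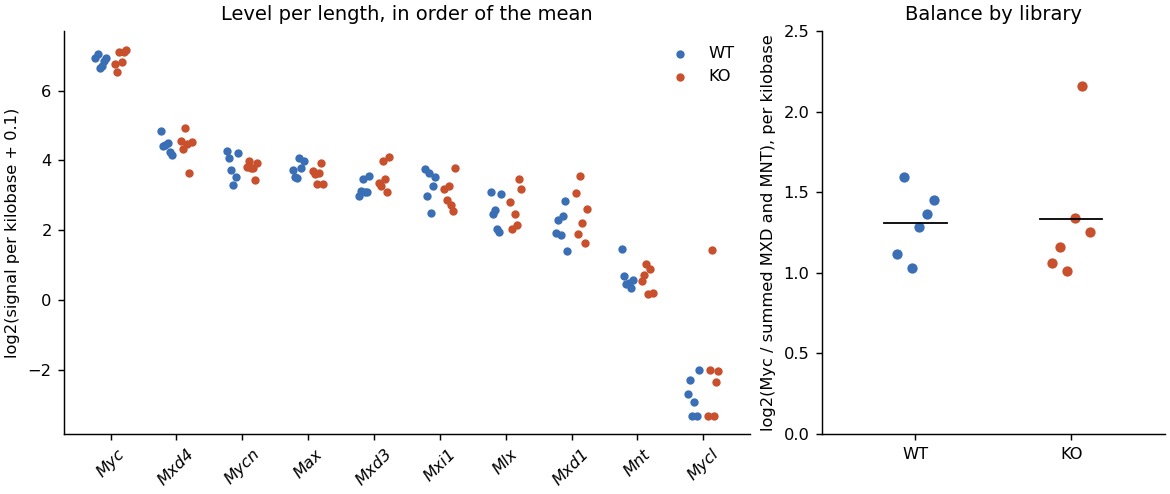
Left, signal per kilobase of each member by library on a log2 scale (0.1 added), in the order of the mean over 12 libraries. Right, log2 ratio of Myc to the summed MXD, MXI1 and MNT signal per kilobase in each library, with group means as black lines. Myc lies above all other members, and the ratios of both labels overlap, with KO replicate 6 highest at 2.16.

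The members were then compared with each other across the 12 libraries. Of the 28 pairs among the 8 tested members, 18 had a positive Pearson correlation of log2(signal + 1), and the correlations ran from -0.65 to 0.61. After Benjamini-Hochberg adjustment over the 28 pairs, 0 had a permutation p under 0.05, with 4 pairs at an unadjusted p under 0.05 for Pearson's r and 3 for Spearman's rho. With median-of-ratios size factors there were 2 and 2 such pairs, and without the pair of libraries with little Y-linked signal 1 and 1. Max went opposite to Mxd3 (r = -0.65, permutation p = 0.0215, adjusted p = 0.323). Its Spearman's rho was -0.62 (permutation p = 0.0347, adjusted p = 0.397). Leaving out both libraries farthest from the median of Max gave an r of -0.50. Within the labels, r was 0.01 for WT and -0.95 for KO (n = 6 each), so the relation did not hold within the WT libraries.

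Max also had a negative r with Mxd4 (-0.53), Mxd1 (-0.50) and Mxi1 (-0.45), each with an adjusted permutation p of 0.424 or more. Mxd1 and Mxd4 had an r of 0.87 within the KO libraries and of -0.02 within the WT libraries (n = 6 each). Over the 12 libraries their r was 0.58 (permutation p = 0.0461, adjusted p = 0.323) and their rho 0.64 (permutation p = 0.0280, adjusted p = 0.397), and r was 0.35 without both libraries farthest from the median of Mxd1. Myc and Mlx had an r of 0.61 (permutation p = 0.0360, adjusted p = 0.323) and a rho of 0.60 (permutation p = 0.0425, adjusted p = 0.397). Within the labels their r was 0.39 for WT and 0.72 for KO, and 0.45 without both libraries farthest from the median of Myc. Mycn and Mxi1 had an r of 0.61 (permutation p = 0.0347, adjusted p = 0.323) and a rho of 0.52 (permutation p = 0.0886, adjusted p = 0.620), with 0.67 within WT and 0.58 within KO, and 0.34 without both libraries farthest from the median of Mycn. Myc and Max had an r of -0.28 (permutation p = 0.371, adjusted p = 0.578) and a rho of -0.17 (permutation p = 0.603, adjusted p = 0.806). No difference between the correlations within WT and within KO was tested. The permutations moved all 12 libraries freely and ignored their numbers. Yet same-numbered WT and KO libraries were more alike over all genes tested. With the mean of each gene within its label subtracted, their mean correlation was 0.196, against -0.039 for different numbers. The part of such shared variation in the correlations between members was not tested.

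**Figure D4:**
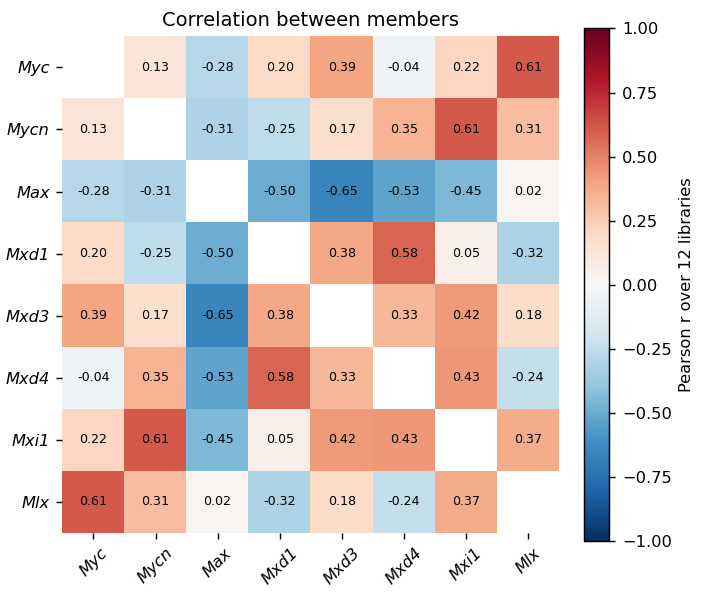
Pearson correlation of log2(signal + 1) between the 8 members tested over the 12 libraries, from blue (-1) to red (1). Max is negative with each of the 4 MXD family members shown, lowest with Mxd3 (-0.65), and the highest value is 0.61.

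The genes whose pattern over the 12 libraries was most like that of Myc, out of 8886 compared, were Pla2g4a (r = 0.91), Mtr (r = 0.88) and Pimreg (r = 0.86). Pla2g4a encodes a cytosolic phospholipase that releases arachidonic acid, and Mtr encodes methionine synthase. Those most like Max were Kat6a (r = 0.92), Smad2 (r = 0.82) and Prorsd1 (r = 0.82). Kat6a encodes a histone acetyltransferase needed for hematopoietic stem cells. These are the extremes of many comparisons, take no account of the library numbers and are given as a description.

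Genes around the network were grouped into lists by role. Of the other proteins of the network, Mga, a MAX partner that represses E-box genes, had a log2 fold change of 0.09 (standard error 0.22), and Mlxip, the partner of MLX, of 0.27 (standard error 0.23). Mlxipl was below the filter. All 22 co-activators and co-repressors were tested. Of these, 13 were higher and 9 lower in the KO libraries, with 0 at an unadjusted p under 0.05 and a median log2 fold change of 0.02. The median over all genes tested was 0.0031, and 50.7% of them were higher. Sin3a, the scaffold that MXD proteins recruit, had a signal of 272 ± 119 for WT and 234 ± 106 for KO (SD, n = 6 each). Its log2 fold change was -0.22 (95% interval -0.79 to 0.36).

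Of the genes for turnover of the MYC protein, 14 of 15 were tested, with 7 higher and 7 lower in the KO libraries, and a median log2 fold change of 0.06. Usp36, a nucleolar deubiquitinase that stabilizes MYC, had an unadjusted p under 0.05. Usp36 signal ran from 28.5 through a median of 53.5 to 70.7 in the WT libraries and from 43.0 through 82.5 to 88.5 in the KO libraries. Of the KO libraries, 4 lay above every WT library. The fitted difference on the log2 scale was 0.59 (standard error 0.23, 95% interval 0.10 to 1.09, exact permutation p = 0.0433), with an adjusted p of 0.9996 from limma, so it was not called. Its unadjusted p ran to 0.0570 without WT replicate 6 and was 0.0521 with equal totals without Lars2. Against this 1 of 14 stands a share of 1.98% of all genes tested that were higher in the KO libraries at an unadjusted p under 0.05. Huwe1, a ubiquitin ligase for MYC, had a signal of 118 ± 11.8 for WT and 118 ± 12.7 for KO (SD, n = 6 each), a log2 fold change of -0.0020 (95% interval -0.27 to 0.26).

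Of 65 genes known to be activated by MYC, 60 were tested, with 38 higher and 22 lower in the KO libraries, and 1 at an unadjusted p under 0.05, which is no more than the 1.98% of all genes tested that were higher at that p. The share higher was 63.3%, beside 50.7% over all genes tested, and the median log2 fold change was 0.03, with values from -0.27 to 0.50. That median was -0.031 without the pair of libraries with little Y-linked signal and -0.012 at a mean signal of at least 50. Srm, which encodes spermidine synthase of the polyamine pathway, was the gene at an unadjusted p under 0.05. Srm signal ran from 27.1 through a median of 34.4 to 45.4 in the WT libraries and from 38.8 through 49.5 to 64.2 in the KO libraries. KO replicates 3, 4, 6 and 7 lay above every WT library. The fitted difference on the log2 scale was 0.47 (standard error 0.18, 95% interval 0.09 to 0.85, exact permutation p = 0.0195), with an adjusted p of 0.9996 from limma, so it was not called. With equal totals without Lars2 its log2 difference was 0.52 with an unadjusted p of 0.109, and without the pair with little Y-linked signal 0.44 with an unadjusted p of 0.0523. The 2 most abundant genes of the list had a lower mean in the KO libraries. Eif4a1, an RNA helicase of translation initiation, had a signal of 1219 ± 82.3 for WT and 1090.4 ± 227 for KO, and Nop56, a nucleolar protein of ribosome assembly, 1016 ± 141 for WT and 884 ± 324 for KO (SD, n = 6 each). Their log2 fold changes of -0.19 and -0.27 did not pass the test (adjusted p = 0.9996 from limma for both). Npm1, the next in abundance, had 763 for WT and 773 for KO.

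Of 8 genes known to be repressed by MYC, 3 passed the filter and all 3 had a lower mean in the KO libraries, with log2 fold changes from -0.07 to -0.01. Cdkn1b, which encodes the cell cycle inhibitor p27, had -0.01 (95% interval -0.38 to 0.36), and Cebpa, a factor of myeloid differentiation, -0.06 (95% interval -0.58 to 0.46). Below the filter, Cdkn1a differed by -0.43, Gadd45a by -0.45, Cdkn1c by -0.28 and Ndrg2 by -0.83 on the log2 scale, with exact permutation p from 0.102 to 0.424. Cdkn2b was listed at 0 in all 12 libraries. Without the filter the median of the list was -0.28, against -0.06 for the 3 genes tested. That value is the one of Cdkn1c, whose mean signal of 0.693 is near the floor. Over all genes without the filter the median was 0.0017. Of 16 cell cycle genes, 10 were higher and 6 lower, with 0 at an unadjusted p under 0.05 and a median log2 fold change of 0.07. Mki67 had a signal of 703 ± 153 for WT and 763 ± 189 for KO (SD, n = 6 each), and Mcm5 232 ± 39.2 and 255 ± 52.9. Across these lists 0 genes had an adjusted p under 0.05.

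**Figure D5:**
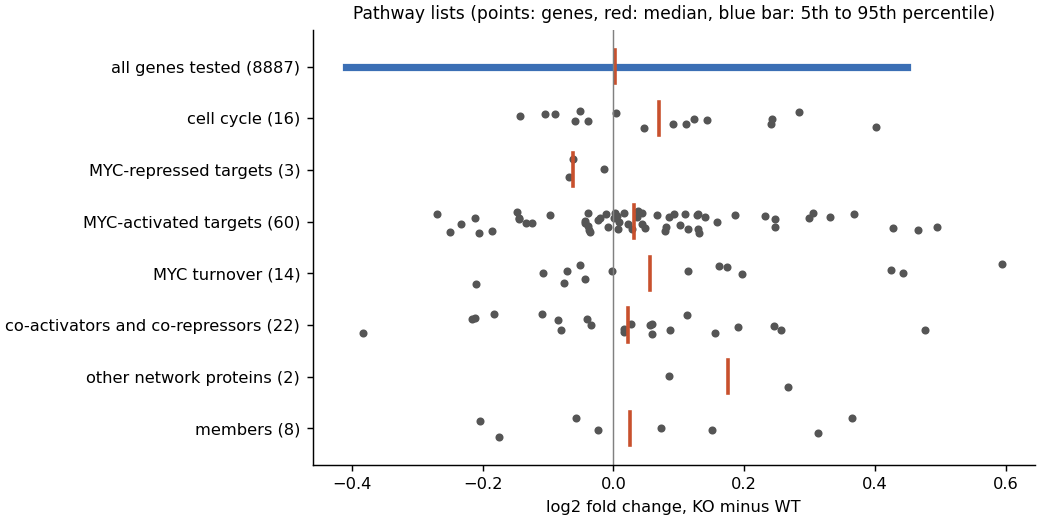
Log2 fold change, KO minus WT, of every tested gene in each list (points), with the median of the list in red, and the 5th to 95th percentile of all 8887 genes tested as a blue bar (-0.41 to 0.45). The medians of the lists lie between -0.06 and 0.18.

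Markers of the cells in the sort were examined beside these values. Of 4 markers of the LSK gate and its subsets, Flt3, a receptor of multipotent and lymphoid progenitors, differed by -0.51 on the log2 scale (exact permutation p = 0.0628, unadjusted limma p = 0.0423). Itga2b, a marker of megakaryocyte-primed cells and the only one of its 3 markers that passed the filter, had 0.72 (exact permutation p = 0.0043, unadjusted limma p = 0.00597). Both had an adjusted p of 0.9996. The 3 megakaryocyte markers summed to between 11.9 and 48.4 in the WT libraries and to between 23.8 and 66.1 in the KO libraries. The 8 stem cell markers summed to 437 to 768 for WT and 418 to 684 for KO. The granulocyte markers, of which Mpo, Elane and Prtn3 are expressed in early progenitors, summed to 313 to 1945 for WT and 412 to 2128 for KO. The 5 monocyte and macrophage markers summed to 47.9 to 132 for WT and 48.6 to 129 for KO. The part of these cell types in the values of the network was not tested.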

How the data were processed

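LSK cells were sorted by flow cytometry from lineage-depleted bone marrow of 6 WT and 6 Fancg KO mice, and mRNA libraries were sequenced. The authors deposited 1 table with a signal per gene and library, which is not whole-numbered and was taken as an estimated count divided by a size factor. The submitters' processing notes name kallisto. Its version, the mouse build and annotation and the use of strand are not given in the sources used here. Low values pile up on a step that gives an approximate read number per library, but whole reads could not be recovered for nearly all genes, so no count test was run.

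Tested were 8887 of 35999 genes, those whose signal averaged 10 or more, as log2(signal + 1) with limma 3.58.1 (R 4.3.3, trend, 2 groups, no covariate), with Benjamini-Hochberg adjustment over all genes tested and a threshold of 0.05. Fold changes are on that scale and understate those of low genes. Single genes were also compared with a two-sided exact permutation test, and correlations with 100000 permutations. In data simulated for KO against WT on 8887 genes, 200 were changed. Limma called 52 of 100 genes changed by 1 and 93 of 100 changed by 2 on the log2 scale, with 8 false calls. The simulated noise was independent between genes and libraries, unlike that of the real libraries. The adjustment is also stricter where fewer genes are changed, so these shares may be too high for the real data. Groups came from the labels, and 1 library was counted as 1 mouse.

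The members and lists were chosen with earlier results of these data known. Named were all members, the genes of each list at an unadjusted p under 0.05 and its 2 most abundant genes, and the 3 genes most correlated with Myc and with Max. A gene that this rule names is not reported here. Marker genes, Fancg, Gm18853 and Psmc3ip were named as checks. Transcript lengths and positions came from GENCODE M21, for which 35929 of the 35999 names were found, and promoters from RefSeq. A comparison of the fold changes of genes tested with and without an E-box was void, because 79.2% of the genes tested had a promoter entry. The alternatives were other pseudocounts, filters and scalings, limma without trend, a replicate block and leaving out libraries.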

Additional observations from a re-analysis of the deposited data

Results flagged for a closer look

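In 3 groups of 6 libraries, 1 library lay far from the other 5 (Dixon's ratio above 0.625). Of 22 groups examined, chance gives about 1.1 such cases if the values within a group are normally distributed. This was not tested, and Mycl was at 0 in 4 of 12 libraries, so 1.1 is only a rough guide. Mycl had a signal of 9.14 in KO replicate 4, while the other KO libraries lay between 0 and 0.526. Mnt had a signal of 12.3 in WT replicate 2, while the other WT libraries lay between 5.33 and 6.87. The log2 ratio of Myc to the summed repressors was 2.16 in KO replicate 6, while the other KO libraries lay between 1.01 and 1.34. Mxd4 had its lowest signal, 48.0, in that library.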

How the results depend on the processing

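No member had an adjusted p under 0.05 in any alternative that gave it a limma value, and the lowest was 0.889. Of the 10 members, 7 kept their sign in every alternative, and Mycn, Mxd4 and Mnt did not. Limma without trend and the replicate block cannot change a sign, so they add nothing to this. Rescaling to equal totals without Lars2 turned Mxd4 to 0.032. With 1 library left out, the log2 fold change ran from -0.17 to 0.029 for Mycn, from -0.13 to 0.13 for Mxd4 and from -0.15 to 0.079 for Mnt. Over all genes, 326 had an unadjusted p under 0.05 (176 higher and 150 lower in KO), against 127 with equal totals (89 and 38), 398 without the pair with little Y-linked signal (173 and 225), 836 of 21536 without the filter and 91 of 3119 at a mean signal of at least 50. The median log2 fold change was also below 0 without the pair with little Y-linked signal for MYC turnover (-0.029) and cell cycle genes (-0.033), against 0.06 and 0.07 in all 12 libraries. With 1 library left out, MYC-activated genes had a median from 0.00032 to 0.112 and 1 to 3 genes at an unadjusted p under 0.05. The 8 member values that reversed all belong to the 3 genes named, and the cause was not tested. With a replicate block, 476 genes (248 higher and 228 lower) had an unadjusted p under 0.05 and 0 an adjusted p under 0.05. With 1 library of each label per number, the block cannot change the fold changes (Myc 0.07, Max -0.17), only their limma p. It called 0 members. With the mean of each gene within its label subtracted, same-numbered libraries correlated from 0.0862 to 0.362 (mean 0.196, against -0.039 for different numbers). Of the 6 numbers, 5 matched their own number best. This hints at pairs. Only 4 of 6 correlations passed the 0.1 required of every number, which is a set rule and not a test of pairing. The labels name no shared litter or batch, so the numbers were not taken as pairs. The exact permutation tests ignore the numbers, and their p values would not hold if the libraries are paired. Taken by number, Mxd3 was higher in KO in 6 of 6, singled out after its values were seen, and the other members in 2 to 4 of 6. With the block, the unadjusted limma p of Mxd3 was 0.179 and its adjusted p 0.931. Without both libraries numbered 3, 1 gene outside the network had an adjusted p under 0.05 (0.000306). Those libraries were left out because Gm18853 went against the labels in them. A call of a gene with that pattern follows from this choice and is no separate result. At a mean signal of at least 50 only Myc and Mxd4 were tested, and Mnt and Mycl have no value with quantile normalization, without trend or with the block. Mycl, Mnt, Mxd3 and Mlx rest on few reads, at most 26.6 in any library.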
